A study of Homo sapiens with 6 samples.

Results

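The mRNAs of the aminoacyl-tRNA synthetases were examined in BxPC-3, a cell line established from a human pancreatic cancer. The members are 36 named genes of the 26255 gene symbols in each deposited file. They were chosen by gene symbol as enzymes that join an amino acid to its tRNA. By the known site of their enzymes, 18 are cytosolic, 16 are mitochondrial and 2, GARS and KARS, serve both compartments from the same gene. WARS, the cytosolic tryptophan enzyme, is given apart from the other 17 cytosolic enzymes because it is known to be induced by interferon.

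Each synthetase recognizes 1 amino acid and loads it onto the matching tRNAs, except EPRS, which carries the glutamate and the proline enzyme in a single chain. Mitochondria translate their own small set of mRNAs for the respiratory chain and use a separate set of synthetases, encoded in the nucleus, made in the cytosol and imported. Human mitochondria have no glutamine enzyme of their own, and load that tRNA with glutamate first. The GatCAB complex, made of the QRSL1, GATB and GATC proteins, then converts the glutamate to glutamine. Many cytosolic synthetase genes are known targets of ATF4, a transcription factor of the response to amino acid shortage.

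The libraries form 3 groups of 2. Parent cells were not treated, NC cells received a negative control duplex that the labels call NC-1, and miR-4711-5p cells received a duplex of that microRNA. All 3 groups are the same cell line with no genetic change in the labels, and by the methods of the study they were collected at 36 h. Values are FPKM, the fragments of a gene scaled to the length of its exons and to the size of the library. Nothing in the labels says that the 2 libraries of a group came from separate cultures. The p-values therefore measure only the spread between these libraries, which may be technical.

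The FPKM of a library summed to between 493145 and 550772, and the steps between the lowest values gave relative depths of 0.751 to 1.21 with the Parent 1 library set to 1. The number of reads is unknown. The keratins KRT7, KRT8, KRT18 and KRT19 were strongly expressed, though KRT19 averaged 1629 FPKM in Parent, 1274 in NC and 901 in miR-4711-5p cells. The other listed epithelial markers, in that order of groups, averaged 115, 110 and 29.6 FPKM (CDH1), 30.4, 24.4 and 15.1 (MUC1) and 101, 91.9 and 109 (EPCAM). SMAD4 and CDKN2A, reported to be deleted in BxPC-3 cells, were listed at 0 in all 6 libraries. The 7 leukocyte markers summed to between 0.503 and 1.56 FPKM, and the 8 fibroblast and endothelial markers to between 2.64 and 5.98 FPKM. In RNA from whole cultures, fewer cells of a kind and less RNA per cell cannot be told apart.

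The transfected strand and its matches are shown because 1 synthetase mRNA carried such matches in its longest annotated 3′ UTR. The mature sequence is from RefSeq, and the capitals mark its seed, bases 2 to 8.
hsa-miR-4711-5p: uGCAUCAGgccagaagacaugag

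Matches to the seed were searched as CTGATGC (7mer-m8), as TGATGCA (7mer-A1, in which the last A lies opposite base 1) and as both joined (8mer), on the transcript strand. The search used the longest 3′ UTR of each gene in GENCODE v44lift37, on genome build GRCh37 (hg19). LARS2, the mitochondrial leucine enzyme, was the only member of 36 (2.78%) with a match there. Among 11184 tested genes with a 3′ UTR, 18.4% had one. The members' longest 3′ UTRs had a median of 630 nt, against 1494 nt over those genes. LARS2 lies on the plus strand of chromosome 3. Its longest 3′ UTR has 7196 nt, and 2 of the 4 coding transcripts hold the matches, which are in capitals.
LARS2 7mer-m8, chr3:45590219-45590248, plus strand: atatatgttatCTGATGCcatttttctgaa
LARS2 7mer-A1, chr3:45590686-45590715, plus strand: actggacacatTGATGCActtgagccatca

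With all annotated 3′ UTRs searched, HARS, the cytosolic histidine enzyme, also had a match, in 1 of its 13 coding transcripts. That made 2 of 36 members (5.56%) against 20.5% of the genes. A match is a stretch of letters and not a measured site.

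All 36 members passed the filter of a mean of 1 FPKM, and so each of them was tested among 12040 genes. The 2 nearest to that filter were FARS2, the mitochondrial phenylalanine enzyme, with a mean of 2.84 FPKM, and PARS2, the mitochondrial proline enzyme, with 4.59 FPKM. FARS2 measured 2.86 and 2.73 FPKM in the Parent libraries, 2.83 and 2.70 in the NC libraries, and 3.14 and 2.76 in the miR-4711-5p libraries. PARS2 measured 5.37 and 4.92 FPKM in Parent, 4.14 and 4.43 in NC, and 4.58 and 4.13 in miR-4711-5p cells. Neither was called in any of the comparisons.

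The cytosolic mRNAs were more abundant than the mitochondrial ones. TARS, the threonine enzyme, had the highest level, with a mean of 180 FPKM, and LARS, the leucine enzyme, the lowest cytosolic level, with 22.1 FPKM. The 17 cytosolic members without WARS had a median of 52.9 FPKM, and the 16 mitochondrial members a median of 11.9 FPKM, with IARS2, the isoleucine enzyme, on top at 44.5 FPKM. KARS, the lysine enzyme of both compartments, had 108 FPKM, and GARS, the glycine enzyme of both, had 78.4 FPKM. The cytosolic and the mitochondrial gene for the same amino acid could be set side by side in 17 pairs. The cytosolic mRNA was the higher one in all 17 pairs and in each of the 6 libraries. In Parent cells the ratio of mean FPKM ran from 1.09 for CARS over CARS2, the cysteine pair, to 22.9 for FARSA over FARS2, with a median of 5.18.

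**Figure D1:**
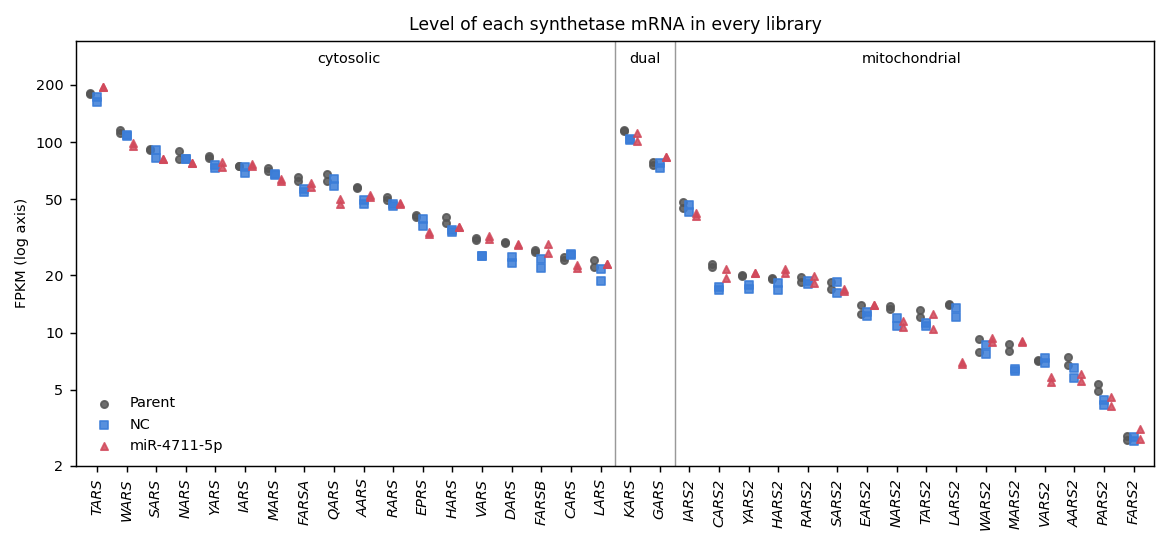
FPKM of the 36 synthetase mRNAs on a log axis, with 1 point per library and 3 groups of 2 libraries side by side for each gene. The cytosolic genes lie between 18.6 and 194 FPKM and most mitochondrial genes lie lower, while the LARS2 points of miR-4711-5p cells stand below those of the other groups.

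Together the 36 mRNAs made up between 0.279% and 0.300% of the FPKM of a library. The cytosolic members without WARS summed to 1032 and 1047 FPKM in Parent, to 967 and 936 FPKM in NC, and to 970 and 986 FPKM in miR-4711-5p cells. The mitochondrial members summed to 237 and 238 FPKM in Parent, to 215 and 214 FPKM in NC, and to 216 and 224 FPKM in miR-4711-5p cells. Both transfected groups were thus below Parent in both compartments, without overlap. The ratio of miR-4711-5p to Parent was 0.941 for the cytosolic sum and 0.926 for the mitochondrial sum, and the ratio of NC to Parent was 0.915 and 0.903. GARS and KARS together had 190 and 195 FPKM in Parent, 180 and 176 in NC, and 184 and 195 in miR-4711-5p cells, which overlapped with Parent.

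These small decreases depended on the scale. The miR-4711-5p libraries had the lowest FPKM sums of the 3 groups. When every library was rescaled to the same sum, the median log2 fold change of all genes in miR-4711-5p against Parent moved from -0.01 to 0.11. The ratio to Parent then was 1.04 for the cytosolic sum, 1.02 for the mitochondrial sum and 1.08 for GARS and KARS. Factors from median ratios over genes of at least 1 FPKM, in contrast, were 0.997 to 1.01 in all libraries, and left both ratios below 1, at 0.957 and 0.941.

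**Figure D2:**
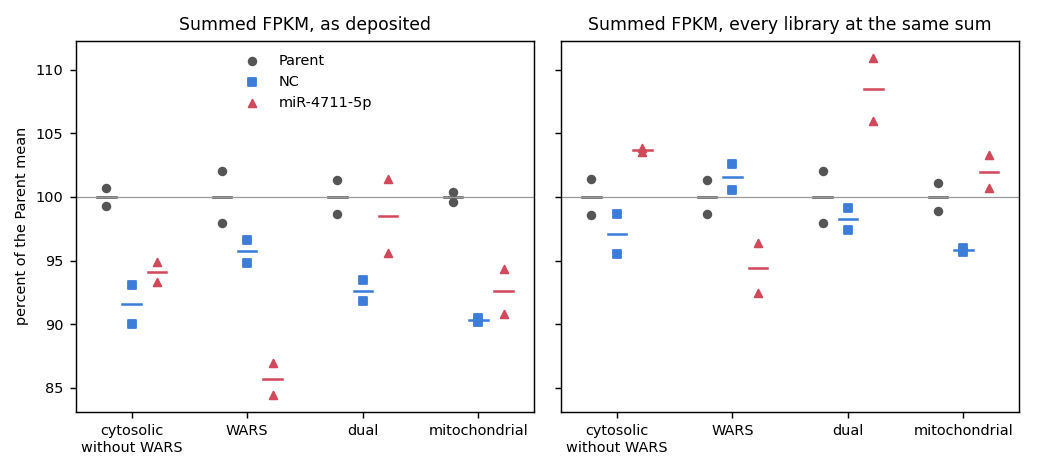
Summed FPKM of the cytosolic members without WARS, of WARS, of GARS and KARS (dual) and of the mitochondrial members, as percent of the Parent mean, with points for libraries and lines for group means. As deposited (left), the NC and miR-4711-5p sums of the cytosolic and mitochondrial members lie below Parent, and with every library at the same sum (right) those of miR-4711-5p cells lie near or above it, while WARS stays below.

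The miR-4711-5p libraries were tested first against Parent. The limma test on log2(FPKM + 1), with Benjamini-Hochberg adjustment over the 12040 genes, called 10 members lower and 0 higher. Over all genes, 43.4% were called, 24.7% lower and 18.7% higher. With 2 libraries in each group, the smallest p of an exact permutation test is 0.3333, so single genes rest on the limma spread shared by all groups. The members called lower were AARS, EPRS, MARS, QARS, SARS and WARS among the cytosolic enzymes and AARS2, LARS2, NARS2 and VARS2 among the mitochondrial ones. The count of called members was 5 without the Parent 2 library, 5 without miR-4711-5p 1 and 6 without miR-4711-5p 2. The 10 were made up of WARS, 5 of the 17 other cytosolic members and 4 of the 16 mitochondrial members. The median log2 fold change was -0.12 for the former and -0.10 for the latter, against -0.01 over all genes. The cytosolic minus the mitochondrial median was -0.022, a gap smaller than its spread between libraries of a group (SD 0.036).

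The absence of called increases did not hold on the other scale. With every library at the same sum, 8 members were called higher (IARS, TARS, VARS, GARS, EARS2, HARS2, MARS2 and YARS2) and 3 lower (EPRS, QARS and LARS2), that is, 22.2% and 8.33% of the 36. On that scale 33.3% of all genes were called higher and 14.8% lower. The members' median then was 0.02 and that of all genes 0.11. The members' median thus lay below that of all genes on both scales.

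Most changes were small. The median size of the log2 fold change, regardless of sign, was 0.12 over the members and 0.19 over all genes tested. LARS2 alone of the 36 (2.78%) changed at least 1.5-fold, which 9.85% of all genes did.

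Against NC the picture was different: 9 members were called higher and 6 lower. Over all genes, 39.6% were called, 18.4% higher and 21.2% lower. The members called higher were DARS, FARSB, TARS and VARS of the cytosol, CARS2, HARS2, MARS2 and YARS2 of the mitochondrion, and GARS. The members called lower were CARS, EPRS, QARS, WARS, LARS2 and VARS2. The medians were 0.07 for the cytosolic members without WARS and 0.05 for the mitochondrial members, against 0.00 for all genes. The count of called members was 7 without miR-4711-5p 1 and 4 without miR-4711-5p 2. With every library at the same sum the split was 12 higher and 3 lower, against 24.3% higher and 17.3% lower over all genes.

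The NC libraries had lower synthetase levels than Parent. Parent cells were not treated, so a duplex and the transfection procedure cannot be told apart in either comparison with Parent. In NC against Parent, 10 members were called lower and 0 higher, while 27.2% of all genes were called, 15.1% lower and 12.1% higher. Of the 36 members, 35 had a log2 fold change below 0, and CARS, at 0.06, was the exception. Over all genes, 6237 of 12040 were below 0. The called members were AARS, DARS, FARSA, HARS, VARS and YARS of the cytosol and CARS2, MARS2, NARS2 and YARS2 of the mitochondrion. Without any single library of the 6, the count was 4 (without Parent 1) to 6 (without Parent 2). At the same sum, 5 were called lower and 0 higher, and 21 of the 36 were below 0. Over all genes on that scale, 8.31% were called lower, 19.3% were called higher and 4503 of 12040 were below 0. Since the NC libraries are the reference in 1 comparison and the Parent libraries in another, the 3 comparisons share libraries and are not independent.

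Some of the increases against NC were of this kind. MARS2, the mitochondrial methionine enzyme, measured 8.69 and 7.99 FPKM in Parent, 6.41 and 6.32 in NC, and 9.05 and 8.96 in miR-4711-5p cells. The NC libraries were the low ones, and the miR-4711-5p values also lay above those of Parent, by a smaller margin. Its log2 fold change was 0.44 against NC (SE 0.06, adjusted p = 0.00172), -0.34 in NC against Parent (adjusted p = 0.00951) and 0.10 in miR-4711-5p against Parent (adjusted p = 0.243). VARS, the cytosolic valine enzyme, had 31.5 and 30.8 FPKM in Parent, 25.3 and 25.2 in NC, and 31.0 and 32.1 in miR-4711-5p cells, and again only NC stood apart. It was called in both comparisons with NC, at 0.31 in miR-4711-5p against NC and at -0.29 in NC against Parent. DARS, CARS2 and YARS2 had the same pattern of calls. This pattern depended on the scale. At the same sum, MARS2 (0.23, adjusted p = 0.0222), VARS (0.16, adjusted p = 0.026) and YARS2 (0.17, adjusted p = 0.0274) were called higher against Parent. DARS and CARS2 were not.

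Counted by libraries, both miR-4711-5p values lay below all 4 control values for 10 members, against 26.3% of all genes tested. They lay above all 4 for 5 members (TARS, GARS, HARS2, MARS2 and YARS2), against 23.8% of all genes. The groups overlapped for the other 21 members. Without overlap below the controls were CARS, EPRS, MARS, NARS, QARS, SARS, WARS, IARS2, LARS2 and VARS2.

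Called lower against both references were 5 members, LARS2, QARS, EPRS, VARS2 and WARS, and 0 were called higher against both. Over all genes, 15.4% were lower in both and 10% higher in both. The plot of both fold changes shows these 5 in its lower left corner.

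**Figure D3:**
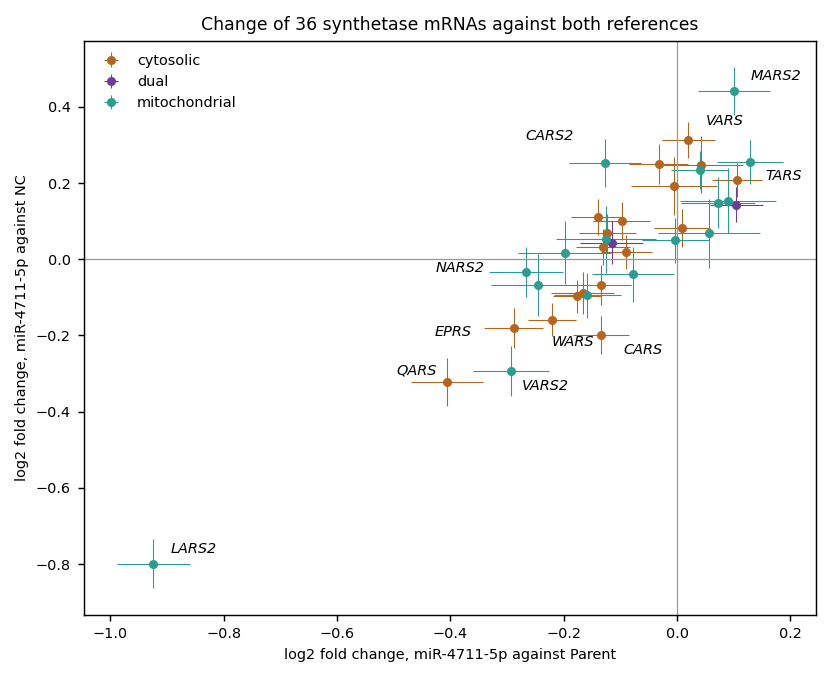
The log2 fold change of each of the 36 mRNAs in miR-4711-5p against Parent (horizontal axis) and against NC (vertical axis), colored by compartment, with bars for 1 SE from limma on log2(FPKM + 1). Both axes use the same miR-4711-5p libraries, so the positions along them are not independent, and LARS2 at -0.92 and -0.80 lies far from the other members.

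LARS2 had the largest decrease of the members. It measured 13.9 and 14.1 FPKM in Parent, 12.1 and 13.4 in NC, and 6.82 and 6.98 in miR-4711-5p cells. The miR-4711-5p values did not overlap with the 4 controls, which lay close to each other. LARS2 had a log2 fold change of -0.92 against Parent (SE 0.06, adjusted p = 5.48e-05) and -0.80 against NC (SE 0.06, adjusted p = 0.000128). It took place 211 of 12040 among the decreases against Parent and place 322 among those against NC. NC against Parent was not called (-0.12, adjusted p = 0.19). LARS2 was called lower in all 15 alternative settings against either reference. LARS, the cytosolic enzyme for the same amino acid, had 22.1 and 24.1 FPKM in Parent, 21.5 and 18.6 in NC, and 23.0 in both miR-4711-5p libraries. The LARS values of miR-4711-5p cells lay within those of Parent and above NC, and the log2 fold change was -0.01 against Parent (adjusted p = 0.966) and 0.19 against NC (adjusted p = 0.0833). The difference between LARS2 and LARS in their response was not tested.

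QARS, the cytosolic glutamine enzyme and a part of the multi-synthetase complex, had the next largest decrease against Parent. It measured 67.6 and 62.5 FPKM in Parent, 58.7 and 63.9 in NC, and 47.3 and 50.3 in miR-4711-5p cells. The miR-4711-5p values were lower than every control. For QARS, the log2 fold change was -0.41 against Parent (SE 0.06, adjusted p = 0.00225) and -0.32 against NC (adjusted p = 0.00674). EPRS, of the same complex, measured 40.6 and 41.2 FPKM in Parent, 39.4 and 36.4 in NC, and 33.0 and 33.6 in miR-4711-5p cells, again without overlap. Its log2 fold change was -0.29 against Parent (SE 0.05, adjusted p = 0.00414) and -0.18 against NC (adjusted p = 0.03). The call of EPRS against NC was lost in 5 of the 15 alternative settings, among them without NC 1 (-0.13), miR-4711-5p 1 (-0.17) or miR-4711-5p 2 (-0.19). That of QARS against NC was lost without miR-4711-5p 1 (-0.28).

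VARS2, the mitochondrial valine enzyme, was at the same level in both control groups. It measured 7.06 and 7.22 FPKM in Parent, 7.37 and 6.92 in NC, and 5.82 and 5.47 in miR-4711-5p cells. Both miR-4711-5p values were below the controls. VARS2 had a log2 fold change of -0.29 against each reference (SE 0.07), and the adjusted p was 0.011 for Parent and 0.0118 for NC. The call against Parent held in 12 of 15 settings and was lost at the same sum (-0.17) and without Parent 2 (-0.28) or miR-4711-5p 2 (-0.26). That against NC held in 13 and was lost without NC 1 (-0.25) or miR-4711-5p 2 (-0.26). VARS was not called against Parent (0.02, adjusted p = 0.754).

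The multi-synthetase complex is an assembly of cytosolic synthetases on scaffold proteins. Of its 8 enzymes among the members, 3 were called lower against Parent (EPRS, MARS and QARS) and 0 higher, with a median log2 fold change of -0.10. Of the 10 cytosolic enzymes outside it, WARS left out, 2 were called lower (AARS and SARS) and 0 higher, with a median of -0.13. The scaffold genes AIMP1, AIMP2 and EEF1E1 had log2 fold changes of -0.13, 0.02 and 0.12 against Parent, and 0 of the 3 were called. By structural class of the catalytic domain, 5 of 18 class I and 4 of 17 class II members were lower against Parent. EPRS, which has both domains, was left out of that count. Over all genes, 24.7% were called lower against Parent and 18.7% higher. At the same sum, the complex had 2 called lower and 1 higher, and the 10 outside it 0 lower and 2 higher. Class I then had 2 lower and 5 higher, and class II 0 lower and 3 higher. On that scale 14.8% of all genes were called lower and 33.3% higher.

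GARS and KARS, which supply both compartments, were not called against Parent. GARS measured 76.0 and 78.4 FPKM in Parent, 77.4 and 72.9 in NC, and 83.0 and 83.1 in miR-4711-5p cells. The miR-4711-5p values were above all controls by a small margin. In GARS, the log2 fold change was 0.10 against Parent (adjusted p = 0.111) and 0.14 against NC (SE 0.05, adjusted p = 0.0457), and 9 of the alternative settings lost the latter call, among them leaving out any library but NC 1, with values from 0.10 to 0.14. KARS measured 114 and 116 FPKM in Parent, 102 and 104 in NC, and 101 and 112 in miR-4711-5p cells. Its miR-4711-5p libraries lay apart from each other and overlapped with NC. KARS had a log2 fold change of -0.12 against Parent (adjusted p = 0.135) and 0.04 against NC (adjusted p = 0.569).

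Beside the mitochondrial synthetases, 4 tested genes act on mitochondrial tRNA after charging. MTFMT formylates the initiator methionyl-tRNA, and QRSL1, GATB and GATC form GatCAB. GATB measured 4.80 and 4.82 FPKM in Parent, 5.36 and 5.29 in NC, and 2.12 and 2.75 in miR-4711-5p cells. GATC measured 14.05 and 13.9 FPKM in Parent, 15.9 and 14.7 in NC, and 9.82 and 10.1 in miR-4711-5p cells. Both were lower than in every control library. The log2 fold change of GATB was -0.76 against Parent (adjusted p = 0.000976) and -0.89 against NC (adjusted p = 0.000565). That of GATC was -0.45 against Parent (adjusted p = 0.000884) and -0.57 against NC (adjusted p = 0.000356). QRSL1 (-0.08) and MTFMT (0.02) were not called against Parent. Against NC, QRSL1 was not called (0.05, adjusted p = 0.695) and MTFMT was called higher (0.21, adjusted p = 0.0445).

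**Figure D4:**
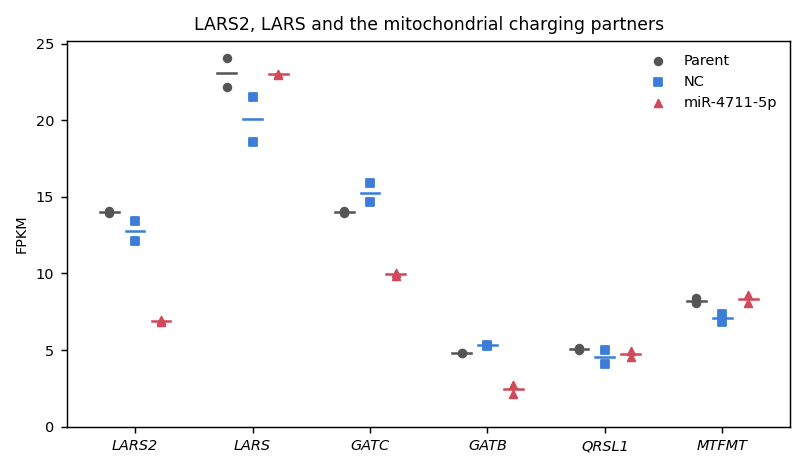
FPKM of LARS2, LARS and the genes that act on mitochondrial tRNA after charging, with points for the 2 libraries of each group and a line for their mean. LARS2, GATC and GATB lie lower in miR-4711-5p cells than in both control groups, while the points of LARS and MTFMT in miR-4711-5p cells overlap with Parent and those of QRSL1 lie just below it and overlap with NC.

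Seed matches were also searched in the longest 3′ UTR of 21 genes of the scaffold, charging partner, mitochondrial translation factor and tRNA handling lists, and 5 had one (GATB, GATC, MRRF, TRNT1 and POP1). MRRF, the mitochondrial ribosome recycling factor, was called lower against Parent (-0.27) and not against NC (-0.08). Among the tested genes with a 3′ UTR, 18.4% had a match in the longest one. TRNT1, which adds the CCA end to tRNA, and POP1, a subunit of RNase P, were called against neither reference. TRNT1 also had an 8mer match in another annotated 3′ UTR, held by 4 of its 11 coding transcripts. XPOT and MTIF2, called lower against both references, had no match in a 3′ UTR. The coding sequence held 1 match in XPOT and LARS2, 2 in EPRS and VARS2, and 0 in MTIF2, QARS and WARS. LARS, IARS and RARS, called against neither reference, also had 1 coding match each. The share of all genes with a coding match was not computed. The matches of GATB and GATC were chosen for printing after their values were seen, and each is a 7mer-m8 match, shown in capitals in the transcript's direction on GRCh37. The GATC 3′ UTR has 3790 nt and the GATB 3′ UTR 670 nt.
GATB 7mer-m8, chr4:152592233-152592262, minus strand: tcctgtgaaagCTGATGCccatgtgccctg
GATC 7mer-m8, chr12:120897942-120897971, plus strand: gcagtgagttcCTGATGCtaactgaggtga

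Of the 9 mitochondrial translation factors on the list, 4 were called lower against Parent (TUFM, TSFM, MTIF2 and MRRF) and 1 higher (MTRF1L), with a median of -0.18. At the same sum 1 was called lower and 2 higher. MTIF2, the initiation factor, was also lower against NC, with log2 fold changes of -0.50 against Parent (adjusted p = 0.000538) and -0.31 against NC (adjusted p = 0.0047). The 5 cytosolic elongation factor genes tested, which deliver charged tRNA to the ribosome or move it along, were all called lower against Parent. Their median was -0.17, and at the same sum 0 of them were called. Over all genes, 24.7% were called lower against Parent and 18.7% higher, and at the same sum 14.8% and 33.3%. Against NC, 1 of the 5 and 1 of the 9 were called lower and 0 higher, with 21.2% of all genes lower. In NC against Parent, 1 of the 5 and 3 of the 9 were called lower, with 15.1% of all genes lower. XPOT, the exporter of tRNA from the nucleus, measured 48.8 and 51.6 FPKM in Parent, 54.3 and 52.9 in NC, and 37.04 and 37.3 in miR-4711-5p cells. It was lower by -0.42 against Parent (adjusted p = 0.000485) and by -0.52 against NC (adjusted p = 0.000229) on the log2 scale. TRMT10C, a part of the mitochondrial enzyme that trims tRNA at its 5′ end, went the other way, with log2 fold changes of 0.46 against Parent (adjusted p = 0.00148) and 0.47 against NC (adjusted p = 0.00149).

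WARS, the member known to be induced by interferon, was lower and not higher in miR-4711-5p cells. It measured 115 and 111 FPKM in Parent, 107 and 109 in NC, and 98.4 and 95.6 in miR-4711-5p cells. Both miR-4711-5p values lay below all controls. WARS had a log2 fold change of -0.22 against Parent (SE 0.04, adjusted p = 0.00578) and -0.16 against NC (SE 0.04, adjusted p = 0.0239). NC against Parent was not called (-0.06, adjusted p = 0.318). At the same sum the decrease against Parent was -0.08 and was not called (adjusted p = 0.149), and that against NC was -0.10 (adjusted p = 0.0873). Removing any single NC or miR-4711-5p library ended the call against NC, with values from -0.18 to -0.14.

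In the same libraries the interferon-stimulated genes were high. Of 25 such genes tested, 24 were called higher in miR-4711-5p against Parent, with a median log2 fold change of 1.54, and 23 against NC, with a median of 1.25. ISG15, a ubiquitin-like protein, measured 181 and 167 FPKM in Parent, 180 and 177 in NC, and 793 and 708 in miR-4711-5p cells. IDO1, the interferon-inducible enzyme that degrades tryptophan, measured 1.91 and 1.43 FPKM in Parent, 2.04 and 1.34 in NC, and 5.30 and 5.04 in miR-4711-5p cells. GBP1, often induced together with WARS by interferon gamma, had a log2 fold change of 1.23 against Parent and of 0.51 against NC. IRF1, an interferon-induced transcription factor, was not called against Parent (0.08, adjusted p = 0.27). NC against Parent had 15 of the 25 called higher, with a median of 0.22, against 12.1% of all genes.

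**Figure D5:**
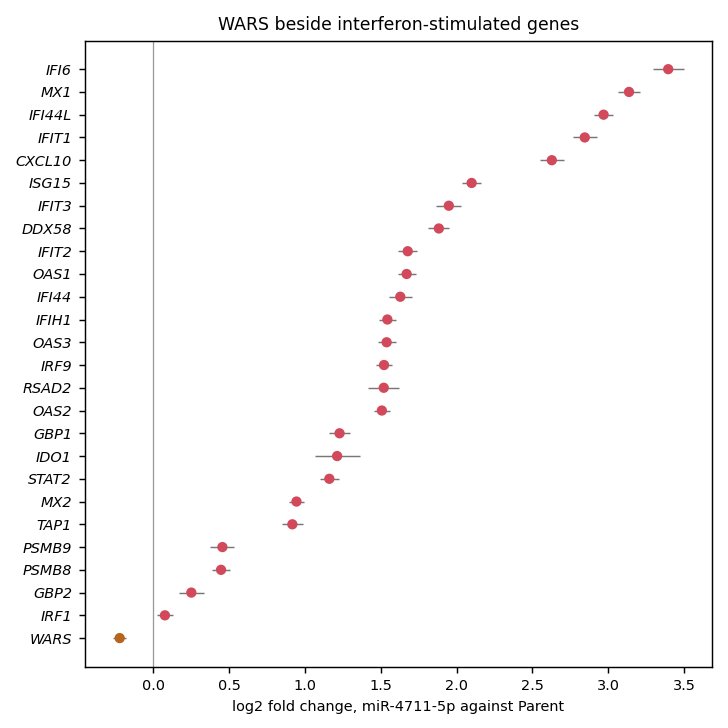
The log2 fold change of WARS and of 25 interferon-stimulated genes in miR-4711-5p against Parent, with bars for 1 SE from limma on log2(FPKM + 1). WARS, at -0.22, is the only one of the genes shown that lies below 0, and the others reach from 0.08 for IRF1 to 3.40 for IFI6.

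The mitochondrial tryptophan enzyme did not follow WARS. WARS2 measured 7.94 and 9.20 FPKM in Parent, 7.71 and 8.56 in NC, and 9.41 and 8.91 in miR-4711-5p cells. The miR-4711-5p values overlapped with Parent and lay above NC. Its log2 fold change was 0.09 against Parent (adjusted p = 0.426) and 0.15 against NC (adjusted p = 0.188).

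Promoters were searched because both lists rest on known promoter elements. RefSeq windows on GRCh38.p14, from 250 bases before to 50 after a start site, were found for 30 of the 36 members. DARS, LARS, VARS, YARS, AARS2 and VARS2 had no window. The core of the interferon-stimulated response element was searched on both strands as GAAA and GAAA separated by 2 bases of any kind. It was found in the windows of 2 members, WARS and EARS2, and of 4.38% of all genes. The WARS match, in capitals, began 55 bases before 1 of the 2 listed start sites, and is printed in the direction of the gene.
WARS, chr14:100375383-100375412, minus strand: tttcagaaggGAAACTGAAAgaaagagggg

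The core of the amino acid response element, which ATF4 is known to bind, was searched on both strands as TGATGNAA. With C at the open base it holds the letters of the 7mer-A1 seed match, which was searched in 3′ UTRs and not in promoters. It was found for 8 members (AARS, CARS, GARS, IARS, MARS, NARS, TARS and YARS2) and in the windows of 4.46% of all genes. Of the 10 members with a window that were listed as ATF4-linked, 7 had it, and of the 20 other members 1 had it. The matches of 4 of them, chosen because their log2 fold changes differed in sign, are printed in the direction of the gene, and 3 of these read the element on the opposite strand.
TARS, chr5:33440957-33440986, plus strand: cgcctttcgaTTGCATCAgctggtccagcc
GARS, chr7:30594835-30594864, plus strand: tacgcggcgaTTTCATCAtgctccgagccg
MARS, chr12:57488054-57488083, plus strand: ccggttccggTTGCATCAgcgagggattca
YARS2, chr12:32756075-32756104, minus strand: tccacactgcTGATGGAAaaattaagttta

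The ATF4-linked synthetases were called lower against Parent in 4 of 11 cases (AARS, EPRS, MARS and SARS), WARS left out, and higher in 0, with a median of -0.13. The 8 other cytosolic and dual members had 1 called lower (QARS) and 0 higher, with a median of -0.09. Over all genes, 24.7% were called lower and 18.7% higher. At the same sum, the ATF4-linked ones had 1 called lower and 3 higher, with a median of 0.005. The 8 others then had 1 lower and 1 higher, with a median of 0.04. On that scale 14.8% of all genes were called lower and 33.3% higher. TARS, which has a match to the core, measured 178 and 182 FPKM in Parent, 173 and 162 in NC, and 193 and 194 in miR-4711-5p cells, above all 4 controls. Its log2 fold change was 0.11 against Parent (adjusted p = 0.0932) and 0.21 against NC (adjusted p = 0.00916). Among the members with a match to the core, TARS, GARS and YARS2 lay above all 4 controls and CARS, MARS and NARS below them. AARS and IARS overlapped with them. The open base of the core differed between matches, and a role of the element was not tested.

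Other genes of the amino acid response were also split. ATF4 itself was not called (0.01 against Parent, adjusted p = 0.856). Of 19 such genes tested, 11 were called lower and 4 higher against Parent, and 9 lower and 4 higher against NC. Over all genes, 24.7% were called lower and 18.7% higher against Parent, and 21.2% and 18.4% against NC. The higher ones against Parent were ATF3, DDIT3, PPP1R15A and EIF2AK4. ATF3, a stress-induced transcription factor, had log2 fold changes of 1.18 against Parent and 1.01 against NC. The lower ones included SLC7A5, an importer of leucine and other large amino acids, with -1.02 against Parent and -0.56 against NC. SLC7A11, the cystine importer, had -0.71 against Parent and -1.43 against NC, and TRIB3, a known ATF4 target, had -0.70 and -0.95. At the same sum the split against Parent was 9 lower and 6 higher, with 14.8% of all genes lower and 33.3% higher.

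Some members overlap other genes in their spans, which include introns, and overlap of exons was not examined. By gene span, MARS overlaps DDIT3, HARS overlaps HARS2, WARS overlaps WDR25 and LARS2 overlaps LARS2-AS1 on opposite strands, among others. The kit kept the strand of the RNA, but whether counting used it is not given in the sources used here, so reads of these pairs may have been exchanged. HARS overlaps DND1, HARS2 overlaps ZMAT2 and EARS2 overlaps GGA2 on the same strand, among others, where the strand could not separate reads of shared exons. Annotated pseudogenes carry the name of WARS, AARS, CARS, FARSB, NARS, RARS, GARS, KARS, IARS2, TARS2 and WARS2, and how many reads they share was not measured. For LARS2, QARS, EPRS and VARS2 no pseudogene of that name was annotated.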

How the data were processed

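RNA was sequenced from BxPC-3 cells with strand-specific mRNA libraries in 6 libraries of 3 groups. The authors mapped reads to hg19 and computed FPKM per gene symbol with Cufflinks tools, and deposited these FPKM values, not counts. The submitters' processing notes name TopHat2 2.1.1, Bowtie2 2.3.5.1, SAMtools 1.2 and Cufflinks 2.2.1, while the methods of the study give other versions for some of them. The gene annotation, the strand setting and the scaling option are not given in the sources used here. The deposited values already had median-ratio factors near 1.01 over genes above 0 in every library.

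A gene was tested where its 6 values averaged 1 FPKM or more (12040 genes), on log2(FPKM + 1) with limma 3.58.1 in R 4.3.3 (lmFit, contrasts.fit, eBayes with a trend), with all 3 groups in the same fit and 3 residual degrees of freedom. Tests were two-sided, with Benjamini-Hochberg adjustment at 0.05. A fold change on this scale understates the change of low genes. FPKM keep no read numbers, so no count model or counting interval was used. Sums, ratios and motif searches used Python 3.11.15, numpy 2.4.6 and pandas 2.3.3, and plots used matplotlib 3.10.9. The fit was tested on simulated data.

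The members and gene lists, with the rule for naming genes, were chosen with earlier results of these data known. Some genes are not reported here and were left out of the lists. Values in every library were to be given for WARS, WARS2, GARS and KARS, for members called in the same direction against Parent and NC, and for those nearest the filter. Libraries shown beyond this rule (MARS2, VARS, LARS, TARS and genes of the other lists) were picked after their values were seen. Whether same-numbered libraries form pairs was checked, and no pairing was used. The alternatives tried were other pseudocounts, filters and scalings, a fold limit, eBayes without a trend, a replicate block, fits of 2 groups and leaving out each library.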

Additional observations from a re-analysis of the deposited data

How the results depend on the processing

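With every library rescaled to the same sum, several values moved, since the sums differ between groups. WARS against Parent was -0.082 and against NC -0.104, neither called, and NC against Parent turned to 0.022. The cytosolic median was 0.013 against Parent, 0.123 against NC and -0.025 in NC against Parent, and the mitochondrial median was 0.030, 0.102 and -0.046. The ratio to Parent of the cytosolic sum was 0.971 in NC and 1.04 in miR-4711-5p cells, of WARS 1.02 and 0.944, of GARS and KARS 0.983 and 1.08, and of the mitochondrial sum 0.958 and 1.02. NC against Parent had 5 members called. Among values that were not called, KARS against Parent turned to 0.023, and in NC against Parent WARS2 turned to 0.011, GARS to 0.045, QARS to 0.00029 and VARS2 to 0.075. Median-ratio factors gave 0.957 and 0.941 for the cytosolic and mitochondrial sums in miR-4711-5p cells, and turned VARS2 in NC against Parent to 0.015.

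At a limit of 1.5-fold, 1 member was called against Parent, 1 against NC and 0 in NC against Parent. Without a trend, WARS against NC was -0.16 and not called, and NC against Parent had 6 members called. With only the groups compared, it had 5. The replicate block called 8 members against Parent, 13 against NC and 10 in NC against Parent, where no block gave 10, 15 and 10. Deviations of same-numbered libraries correlated at 0.061, 0.003 and -0.009 over 12040 genes in the 3 pairs of groups. Such small correlations show no clear shared deviation, but cannot tell whether same-numbered libraries were prepared together.

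Leaving out 1 library each, 5 to 9 members were called against Parent, 4 to 13 against NC and 4 to 6 in NC against Parent. The lowest were 5 without Parent 2 or without miR-4711-5p 1, 4 without miR-4711-5p 2, and 4 without Parent 1. WARS ranged from -0.249 to -0.192 against Parent, from -0.179 to -0.138 against NC and from -0.091 to -0.034 in NC against Parent. The cytosolic median ranged from -0.150 to -0.077 against Parent, from 0.051 to 0.070 against NC and from -0.152 to -0.098 in NC against Parent. The mitochondrial median ranged from -0.121 to -0.033, from 0.029 to 0.063 and from -0.139 to -0.118. The cytosolic minus the mitochondrial median ranged from -0.093 to 0.044, from -0.0082 to 0.025 and from -0.022 to 0.030. The ratio to Parent of the cytosolic sum was 0.900 to 0.931 in NC and 0.934 to 0.949 in miR-4711-5p cells, of WARS 0.938 to 0.977 and 0.840 to 0.874, of GARS and KARS 0.914 to 0.939 and 0.956 to 1.01, and of the mitochondrial sum 0.900 to 0.907 and 0.908 to 0.944. Among values that were not called, these signs turned. WARS2 ranged from -0.0059 (without Parent 1) to 0.184 against Parent, and in NC against Parent from -0.160 to 0.030, above 0 without Parent 2 or NC 1. KARS against NC ranged from -0.031 (without miR-4711-5p 2) to 0.118. In NC against Parent, GARS ranged from -0.081 to 0.0035 (without NC 2), and VARS2 from -0.040 to 0.040, above 0 without Parent 2 (0.014) or NC 2. The cause was not tested. The unknown depth limits what can be said of the precision of FARS2 and PARS2, the lowest members.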
